A study of Mus musculus with 14 samples.

Results

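NRF2, the product of Nfe2l2, is a transcription factor that switches on detoxification and antioxidant genes, and KEAP1 is the protein that holds it down. The genes described are these 2 regulators and 8 genes long used as readouts of the pathway, Nqo1, Gclc, Gclm, Slc7a11, Gsr, Txnrd1, Srxn1 and Hmox1. They were chosen by name, with earlier results of these data known, and all 10 were found among the 54446 genes of the deposited table. RNA-seq was made from whole liver of C57BL/6 mice aged 5 weeks: 6 control libraries carried floxed Mettl3 with no Cre named, and 8 knockout libraries carried floxed Mettl3 and Alb-Cre. Mettl3 encodes the enzyme that places the m6A mark on messenger RNA. Alb-Cre is driven by the albumin promoter, which is active in hepatocytes and in the precursors they share with bile duct cells; which cells of these livers had lost Mettl3 was not measured. Since Cre is named only for the knockouts, loss of Mettl3 and presence of Cre cannot be told apart. The labels number the libraries and do not say that each is a separate animal, so p-values measure the spread between these samples.

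In unstressed cells KEAP1 presents NRF2 to a CUL3 ubiquitin ligase, and NRF2 is degraded. Electrophiles and oxidants modify cysteines of KEAP1, NRF2 accumulates, pairs with small MAF proteins and binds the antioxidant response element upstream of its targets. In liver these targets cover quinone reduction, glutathione synthesis and conjugation, the thioredoxin system and heme breakdown. Much of this control acts on the NRF2 protein, which RNA-seq does not measure.

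Matches to the core letters of the element lie in the start regions of several of the 10 genes. A window of 250 bases before each start site, from RefSeq on GRCm38.p6, was listed for 7 of the 10 genes. Gclc, Hmox1 and Gsr were not matched. The letters searched were TGACNNNGC and TGAGNNNGC on both strands, and the second can overlap the AP-1 element TGAGTCA. At least 1 match was found for 5 of the 7 genes (Nfe2l2, Gclm, Srxn1, Slc7a11 and, at its second listed start site, Txnrd1), while 25.7% of the 27025 genes in the whole table had one in any window. Counted by window, 5 of the 9 windows of these genes held a match (Txnrd1 has 3 windows), and 23.0% of all 32851 windows did. The windows of the 4 genes that were higher in knockouts are printed 5′ to 3′ on the gene's strand. They show how differently the matches are placed, and binding was not measured. Capitals mark a match, written as it reads on the gene's strand.
Srxn1, chr2:152105274-152105523, + strand: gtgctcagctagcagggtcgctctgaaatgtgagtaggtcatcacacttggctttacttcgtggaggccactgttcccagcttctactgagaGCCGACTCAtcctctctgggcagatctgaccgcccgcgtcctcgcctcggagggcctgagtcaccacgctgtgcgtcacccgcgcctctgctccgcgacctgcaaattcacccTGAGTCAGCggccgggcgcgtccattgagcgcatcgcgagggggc
Nqo1, chr8:107403206-107403455, - strand: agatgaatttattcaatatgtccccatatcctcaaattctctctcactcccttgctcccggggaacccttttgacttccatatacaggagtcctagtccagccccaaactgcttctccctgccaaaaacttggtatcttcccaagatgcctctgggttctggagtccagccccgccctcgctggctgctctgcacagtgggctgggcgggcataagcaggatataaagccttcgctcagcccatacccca
Nfe2l2, chr2:75704664-75704913, - strand: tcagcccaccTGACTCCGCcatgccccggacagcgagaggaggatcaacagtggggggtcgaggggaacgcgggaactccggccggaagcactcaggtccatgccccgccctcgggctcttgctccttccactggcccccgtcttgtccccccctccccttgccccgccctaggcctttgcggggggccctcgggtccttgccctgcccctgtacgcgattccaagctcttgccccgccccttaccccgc
Slc7a11, chr3:50443614-50443863, - strand: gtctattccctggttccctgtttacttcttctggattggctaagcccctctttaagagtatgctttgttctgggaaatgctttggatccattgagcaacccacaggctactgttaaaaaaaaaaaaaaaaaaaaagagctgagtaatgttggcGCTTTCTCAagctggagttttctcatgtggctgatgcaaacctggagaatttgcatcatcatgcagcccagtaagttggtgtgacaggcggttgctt
Srxn1 was the only one of the 7 genes with 2 matches in a window, and 3.18% of all windows had 2 or more. Its match nearest the start lay 45 to 37 bases before it and read TGAGTCAGC on the gene's strand. Its other match lay 158 to 150 bases before the start on the opposite strand. The match of Nfe2l2 lay 240 to 232 bases before the start, and that of Slc7a11 97 to 89 bases before it on the opposite strand. Nqo1 had no match within these 250 bases.

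Values are read counts estimated per gene and divided by 1 size factor per library, called normalised counts here. Depth read from the values was 11.1 to 33.8 M estimated reads per library. Mettl3 was 223 ± 23.7 (SD, n = 6) in controls and 99.5 ± 15.7 (n = 8) in knockouts, with every knockout below every control (log2 change -1.17, SE 0.12, limma adjusted p = 1.3e-05). Defining hepatocyte genes such as Alb and Ttr were present in all 14 libraries, and 5 of the 6 hepatocyte markers fell in knockouts. Knockouts 3, 6 and 7 stood apart: they lay at 61.5, 99.7 and 96.3 on the first principal component, and the other 5 knockouts lay between -10.7 and 27.6. Summed hepatocyte markers came to 733988 to 884062 normalised counts in controls, 535597 to 705686 in knockouts 1, 2, 4, 5 and 8, and 375962 to 444823 in knockouts 3, 6 and 7. All values of a library summed to 21.5 to 27.6 M in controls and 16.8 to 20.7 M in knockouts, so these marker sums depend on scaling. Replicates 1 to 4 of both groups expressed Y-linked genes, and controls 5 and 6 and knockouts 5 to 8 had high Xist and the lower depths (11.1 to 19.3 M). In whole liver, fewer cells of a type and less RNA per cell cannot be told apart.

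Of the 10 genes, 4 rose in knockouts: Nqo1, Nfe2l2, Srxn1 and Slc7a11. None fell, and 6 did not pass the test (Keap1, Gclc, Gclm, Txnrd1, Hmox1 and Gsr). The test was limma on log2(value + 1), with adjusted p of at most 0.05 over 23554 genes. Over all these genes 11.5% were higher in knockouts and 11.0% lower. No gene of the 10 was lower at an unadjusted p under 0.05 either, and in the authors' deposited table the same 4 genes, and no other of the 10, had q values of at most 0.05. The median log2 change of the 10 genes was 0.28, beside 0.05 over all genes tested. Without knockouts 3, 6 and 7, described above, 3 of the 10 were called higher (Nqo1, Slc7a11 and Keap1), where 9.19% of all genes were. These 3 libraries stood apart on the same expression values, so this fit is not an independent test. In none of the 10 did every knockout lie above every control, an arrangement found in 4.14% of all genes tested.

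**Figure D1:**
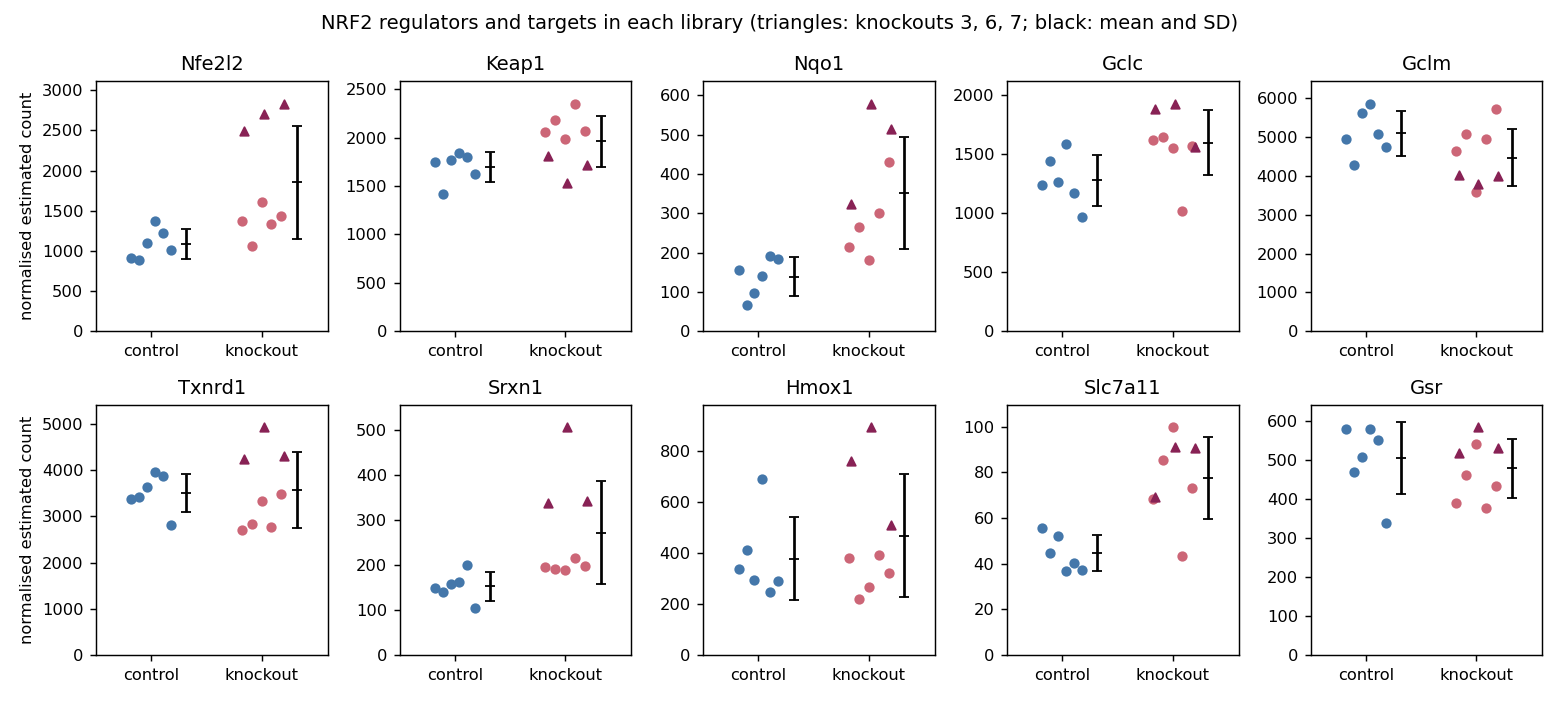
Normalised estimated count of each of the 10 genes (linear axes from 0, a panel per gene), one point per library in controls and knockouts, with triangles for knockouts 3, 6 and 7 and black bars for mean and SD. Nqo1 and Slc7a11 are above every control in 7 of 8 knockouts, while the highest values of Nfe2l2, Txnrd1 and Srxn1 are those of knockouts 3, 6 and 7.

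Nfe2l2 (ENSMUSG00000015839; GRCm38 chr2:75675513-75704641, - strand), the activator itself, ranged from 882 to 1377 normalised counts in controls, with a median of 1057. In knockouts it ranged from 1063 to 2832, with a median of 1520. The 5 knockouts other than 3, 6 and 7 lay between 1063 and 1611, 3 of them within the control range, while knockouts 3, 6 and 7 reached 2497, 2708 and 2832. The mean rose from 1085 ± 192 (SD, n = 6) to 1856 ± 703 (n = 8), a log2 change of 0.70 (SE 0.22, 95% interval 0.24 to 1.16, limma adjusted p = 0.0294). Without knockouts 3, 6 and 7 the change was 0.33 and did not pass (adjusted p = 0.108, where 9.19% of all genes were called higher). The call was also lost on leaving out any 1 of controls 1, 2 and 6 or knockout 3 (adjusted p 0.0638, 0.0641, 0.0553 and 0.0561).

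Besides the hepatocyte markers, those of monocyte-derived macrophages and cholangiocytes moved with the same 3 libraries. Summed Kupffer, endothelial, stellate, erythroid, lymphocyte and neutrophil markers overlapped between these 3 and the other 5 knockouts. Summed markers of monocyte-derived macrophages spanned 584 to 911 normalised counts in controls, 751 to 1370 in knockouts 1, 2, 4, 5 and 8, and 2781 to 3478 in knockouts 3, 6 and 7; 3 of the 6 markers (Ccr2, Spp1 and Trem2) were called higher. Summed cholangiocyte markers spanned 648 to 1221, 1046 to 1555 and 2616 to 3487 in the same order, and 3 of 5 (Epcam, Sox9 and Spp1) were called higher. Spp1 is in both lists and makes up 1920 to 2542 of each sum in knockouts 3, 6 and 7. The share of values from mitochondrially encoded genes was 7.85% and 7.91% in knockouts 6 and 7 but 3.53% in knockout 3, and the 12 libraries other than 6 and 7 had 2.77 to 5.47%. No marker of either list was at 0 in all libraries. The part of these differences in the Nfe2l2 result was not tested.

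Keap1 (ENSMUSG00000003308; chr9:21229730-21239361, - strand), the repressor, ran from 1415 to 1839 in controls with a median of 1760, and from 1527 to 2350 in knockouts with a median of 2022. Here knockouts 3, 6 and 7 were the 3 lowest knockouts, at 1808, 1527 and 1714, and the other 5, at 1985 to 2350, all lay above every control. Over all libraries the means were 1700 ± 157 (n = 6) and 1962 ± 266 (n = 8), and the log2 change of 0.20 (SE 0.10, 95% interval -0.02 to 0.42) did not pass (limma adjusted p = 0.182). Without knockouts 3, 6 and 7 it was 0.33 and passed (adjusted p = 0.0212, where 9.19% of all genes were called higher). Since they were the 3 lowest knockouts for Keap1, leaving them out raises the change by construction. The 3 knockouts that were highest for Nfe2l2 were thus the 3 lowest for Keap1. The log2 ratio of Keap1 to Nfe2l2 within a library, which does not depend on scaling, averaged 0.66 ± 0.18 (SD) in controls and 0.16 ± 0.73 in knockouts. It was -0.47, -0.83 and -0.72 in knockouts 3, 6 and 7, and 0.30 to 1.04 in the other 5 knockouts.

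Among 15 other factors that act on or with NRF2 (all named with the processing), 2 rose and 2 fell, shares near the 11.5% and 11.0% over all genes, and their median log2 change was -0.20. Trim21, a ubiquitin ligase that binds p62, rose by 0.55 (limma adjusted p = 0.0049), and Palb2, which can bind KEAP1 through a motif like that of NRF2, rose by 0.71 (0.0148); without knockouts 3, 6 and 7 it was 0.50 and did not pass (0.0946). Cul3, the scaffold of the ligase that KEAP1 serves, went from 572 ± 40.7 to 432 ± 44.9 normalised counts, a log2 change of -0.41 (0.00355). The other gene that fell was Bach1, a repressor that competes for the same element, with a log2 change of -0.38 (0.025). Bach1 is outside the naming rule and was named after its value was seen. Under scaling of the libraries to equal sums, described further on, 7 of these 15 genes were called higher and 0 lower. There 33.3% of all genes were called higher. Without knockouts 3, 6 and 7 the counts were 1 and 4, where 2165 of all 23554 genes were higher and 2176 lower.

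Nqo1 (ENSMUSG00000003849; chr8:107388225-107403206, - strand), which reduces quinones with NAD(P)H, changed most of the 10. Controls ranged from 65.8 to 191 with a median of 148, and knockouts from 182 to 579 with a median of 312. Only knockout 4, at 182, lay within the control range. The mean rose 2.50-fold on the fitted scale, from 139 ± 49.4 (n = 6) to 351 ± 143 (n = 8), a log2 change of 1.32 (SE 0.29, 95% interval 0.71 to 1.93, limma adjusted p = 0.00416). Knockouts 3, 6 and 7 stood at 323, 579 and 515, and without them the change was 1.03 and still passed (adjusted p = 0.0252). Replicates 1 to 4 alone gave 1.14 (adjusted p = 0.0253), and the 6 Xist-high libraries gave 1.24, which did not pass (0.0928). Control means were 115 in replicates 1 to 4 and 188 in the Xist-high libraries, and knockout means were 247 and 456. With Xist class as a covariate the change was 1.18 (limma adjusted p = 0.00098), and with depth as a covariate 1.01 (0.00688).

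Slc7a11 (ENSMUSG00000027737; chr3:49892526-50443614, - strand), the cystine importer that feeds glutathione synthesis, was the scarcest of the 10. It ranged from 36.8 to 55.6 in controls, with a median of 42.6, and from 43.5 to 99.6 in knockouts, with a median of 79.2. Knockout 5, at 43.5, was the only knockout within the control range. The mean rose from 44.5 ± 7.87 (n = 6) to 77.6 ± 17.9 (n = 8), a log2 change of 0.77 (SE 0.18, 95% interval 0.39 to 1.15, limma adjusted p = 0.00646). Knockouts 3, 6 and 7 were not set apart (69.3, 91.0 and 90.8, below the 99.6 of knockout 4), and without them the change was 0.69 (adjusted p = 0.0356). These values rest on 23.8 to 118 estimated reads per library, so single libraries are less exact here than for the other genes.

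Gclc and Gclm encode the catalytic and the modifier subunit of glutamate-cysteine ligase, the rate-limiting enzyme of glutathione synthesis. Gclc (ENSMUSG00000032350; chr9:77754535-77794485, + strand) ranged from 971 to 1592 in controls with a median of 1253, and from 1023 to 1929 in knockouts with a median of 1596. Its log2 change of 0.32 (SE 0.14, 95% interval 0.02 to 0.61) did not pass (limma adjusted p = 0.116). Knockout 5, at 1023, lay far below the other 7 knockouts (1554 to 1929), and without it the change was 0.41 and passed (adjusted p = 0.0164). That library was singled out by its Gclc value, so this fit is not an independent test. In it 2863 of all 23554 genes were called higher. Without knockouts 3, 6 and 7 the change of Gclc was 0.21 and did not pass (adjusted p = 0.367). Gclm (ENSMUSG00000028124; chr3:122245557-122270732, + strand) went the other way in sign, with 4269 to 5857 in controls and 3587 to 5710 in knockouts. Its log2 change was -0.20 (SE 0.12, 95% interval -0.45 to 0.05, adjusted p = 0.253), and 4 of 8 knockouts lay below every control. This sign depends on scaling, since equal sums gave 0.14 and quantile normalization 0.07.

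The subunits of the ligase can also be compared within each library. The log2 ratio of Gclm to Gclc was 2.0 ± 0.25 (SD, n = 6) in controls and 1.49 ± 0.43 (n = 8) in knockouts, a difference of -0.51 to which no test was applied. In 5 of 8 knockouts the ratio was below every control, while knockout 5, with its low Gclc, had 2.28. Gsr (ENSMUSG00000031584; chr8:33652523-33698163, + strand), which regenerates reduced glutathione, ranged from 339 to 581 in controls with a median of 531, and from 377 to 584 in knockouts with a median of 490.5. The groups overlapped almost wholly, and the log2 change was -0.07 (SE 0.14, 95% interval -0.36 to 0.23, limma adjusted p = 0.773). Its sign was 0.27 under equal sums.

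**Figure D2:**
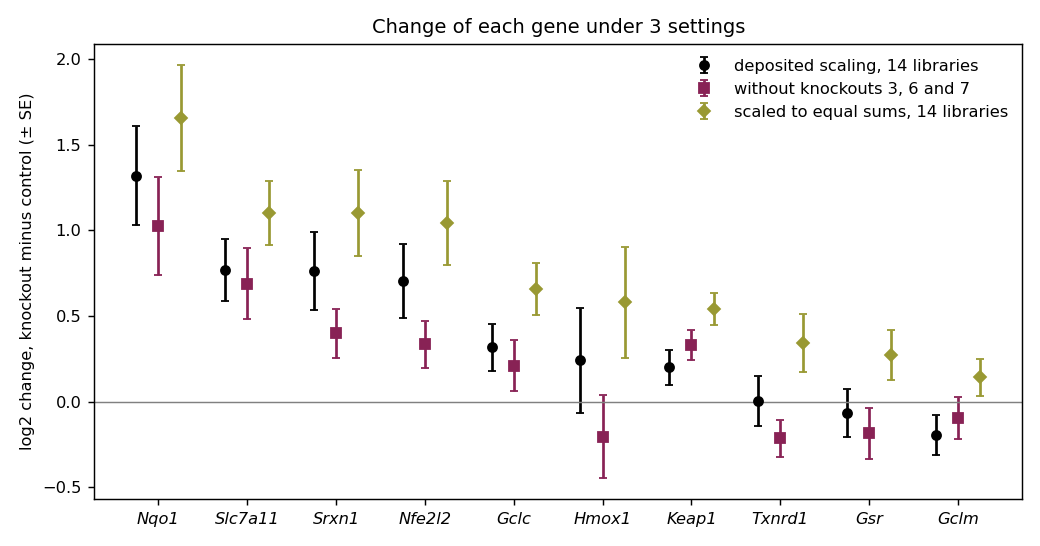
Log2 change, knockout minus control, of each of the 10 genes with bars of 1 SE, under the deposited scaling, without knockouts 3, 6 and 7, and with libraries scaled to equal sums. Nqo1 and Slc7a11 lie well above 0 in all 3 fits, Keap1 grows and Nfe2l2 shrinks when the 3 libraries are left out, and Gclm and Gsr change sign under equal sums.

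In the thioredoxin system, Srxn1 and Txnrd1 behaved differently. Srxn1 (ENSMUSG00000032802; chr2:152105516-152111376, + strand), sulfiredoxin, repairs over-oxidised peroxiredoxins. It ranged from 104 to 200.5 in controls with a median of 153, and from 190 to 506 in knockouts with a median of 206.5. Knockouts 3, 6 and 7 had 338, 506 and 342, and the other 5 lay close together at 190 to 215, at the top of the control range, so that 5 of 6 controls were below every knockout. The mean rose from 152 ± 31.5 (n = 6) to 272 ± 115 (n = 8), a log2 change of 0.76 (SE 0.23, 95% interval 0.28 to 1.24, limma adjusted p = 0.024). Without knockouts 3, 6 and 7 it was 0.40 (adjusted p = 0.072), and without control 6, the lowest at 104, it was 0.66 and also did not pass (0.0593).

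Txnrd1 (ENSMUSG00000020250; chr10:82833951-82897712, + strand), cytosolic thioredoxin reductase, ranged from 2817 to 3952 in controls with a median of 3521, and from 2710 to 4926 in knockouts with a median of 3402. Its highest values were again those of knockouts 3, 6 and 7 (4240, 4926 and 4314), all above every control, while the other 5 knockouts were at 2710 to 3480. The mean change over all libraries was 0.00 on the log2 scale (SE 0.14, 95% interval -0.30 to 0.31, limma adjusted p = 0.992), and -0.21 without the 3 libraries (0.194). The log2 ratio of Srxn1 to Txnrd1 in each library was -4.75 to -4.26 in controls (mean -4.53 ± 0.16 SD) and -4.13 to -3.28 in knockouts (mean -3.77 ± 0.28), so all 8 knockouts were above every control, by 0.76 on average. The ratio of Gsr to Txnrd1 differed little, at -2.81 ± 0.17 and -2.88 ± 0.18. No test was applied to these ratios, and how many other gene pairs are ordered like Srxn1 and Txnrd1 was not counted.

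**Figure D3:**
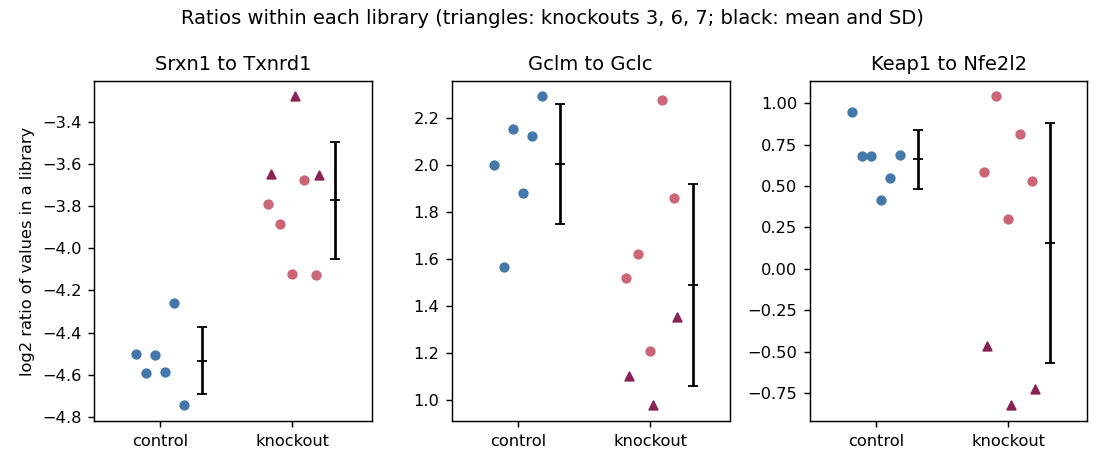
Log2 ratio of normalised counts within each library for Srxn1 to Txnrd1, Gclm to Gclc and Keap1 to Nfe2l2, one point per library, with triangles for knockouts 3, 6 and 7 and black bars for mean and SD. Of these ratios, only for Srxn1 to Txnrd1 do the 8 knockouts (-4.13 to -3.28) lie wholly above the 6 controls (-4.75 to -4.26).

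Hmox1 (ENSMUSG00000005413; chr8:75093621-75100589, + strand), heme oxygenase 1, which opens the heme ring and is also abundant in liver macrophages, varied most between libraries of 1 genotype. It ranged from 247 to 688 in controls with a median of 315, and from 218 to 891 in knockouts with a median of 385. Control 4, at 688, exceeded all knockouts but 3 and 6 (761 and 891). The log2 change was 0.24 (SE 0.31, 95% interval -0.41 to 0.89, limma adjusted p = 0.619), and it was -0.20 without knockouts 3, 6 and 7 (0.616). Summed Kupffer cell markers were 8444 to 11140 normalised counts in controls and 5708 to 14557 in knockouts, highest in knockouts 3 and 5, and 0 of 8 were called. The part of macrophage RNA in the Hmox1 values was not tested.

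Knockouts 3, 6 and 7 were the 3 highest knockouts in 4 of the 10 genes (Nfe2l2, Txnrd1, Srxn1 and Hmox1), and the 3 highest of all 14 libraries in 3 of them (all but Hmox1). The change in knockouts was also compared between the Y-positive and the Xist-high libraries. No gene of the 10 differed between the classes in limma's interaction test (adjusted p 0.8294 to 0.975, where 13 of 23554 genes passed). At an unadjusted p under 0.05 the counts were 0 of 10 and 1395 of 23554. The widest difference was that of Hmox1, whose log2 change was -0.19 in the Y-positive and 0.87 in the Xist-high libraries (interaction 1.06, SE 0.61, unadjusted p = 0.107). Within the Y-positive libraries alone Slc7a11 passed (0.76, limma adjusted p = 0.0309), while Nfe2l2 (0.57, 0.149) and Srxn1 (0.54, 0.0875) did not. Within the Xist-high libraries, with only 2 controls, the log2 changes of Nfe2l2, Srxn1 and Slc7a11 were 0.81, 1.02 and 0.87, and none of the 10 genes passed (adjusted p 0.0928 to 0.838).

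Scaling bears on the whole set. When libraries were scaled to equal sums outside ribosomal RNA genes, the median over all genes went from 0.05 to 0.38 on the log2 scale, a shift of 0.33, and 33.3% of genes were called higher (7833 higher and 866 lower, against 2697 and 2583 as deposited). Under it 6 of the 10 genes were called higher: to the 4 named above were added Keap1 at 0.54 (limma adjusted p = 0.000464) and Gclc at 0.66 (0.00407). Relative to the shift, these are 0.21 and 0.33. The same 6 genes were called higher with quantile normalization, which moved the median over all genes by -0.06: there Keap1 was at 0.35 (0.0134) and Gclc at 0.45 (0.0496). With depth as a covariate Gclc passed (0.44, adjusted p = 0.0248) and Nfe2l2, at 0.64, did not (0.0662).

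Divided by the length of the longest coding transcript in GENCODE M21, the control levels placed Txnrd1 (969 ± 113 normalised counts per kb) and Gclm (911 ± 104) highest. Keap1 (470 ± 43.4), Nfe2l2 (438 ± 77.6) and Gclc (374 ± 63.0) followed, then Hmox1 (241 ± 103) and Gsr (189 ± 34.5), then Nqo1 (89.5 ± 31.8) and Srxn1 (54.2 ± 11.2), and last Slc7a11 (4.82 ± 0.85). Ranges of neighbours in this order overlapped except between Gclm and Keap1, Gsr and Nqo1, and Srxn1 and Slc7a11. In knockouts Nfe2l2 (750 per kb) stood before Keap1 (543), and Nqo1 (226) before Gsr (180), though these neighbours overlapped. The order of Nfe2l2 and Keap1 rests on knockouts 3, 6 and 7. In the other 5, Nfe2l2 averaged 1363 normalised counts over 2475 bases and Keap1 2129 over 3614, which is the control order.

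METTL3 marks adenines mostly within short motifs, of which GGACT is a common form, and copies of it were counted in the same transcripts as a description of sequence only, since no m6A was measured here. Nfe2l2 held 6 copies, 2.42 per kb, which is the 94.9 percentile of 16145 coding genes (median 1.03 per kb). Srxn1 had 1.42, Nqo1 1.29 and Keap1 1.11 per kb. Gclm had 0.72, Gclc 0.58, Txnrd1 0.55 and Gsr 0.37 per kb, all below that median. Slc7a11, which rose, had 0.43 per kb (percentile 14.9), and Hmox1 had no copy.

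Beyond the classical readouts, 107 further genes in 10 lists were read from the same fit. Over all genes tested in it, 11.5% were higher and 11.0% lower. In glutathione supply and conjugation 13 of 15 genes were tested (Ggt1 and Gpx2 were not), 8 rose and 2 fell, with a median log2 change of 0.92. Glutathione S-transferases led: Gsta1 changed by 4.88 (limma adjusted p = 0.00265), from 18.6 ± 17.0 to 919 ± 1355 normalised counts, Gstm3 by 2.84 (0.000702) and Gsta2 by 2.15 (0.00035). The 2 that fell, named after their values were seen, were Gsta3 (-0.99, 0.00479) and Mgst1 (-0.87, 0.00183). Glutathione S-transferases are alike in sequence, so the division of reads among them is uncertain, as it is for the Cyp genes. In carbonyl and quinone detoxification and efflux, 19 of 20 genes were tested (Aldh3a1 was not), 7 rose and 0 fell, with a median of 0.31. The efflux pump Abcc4 rose by 3.28 (0.000313) and the carbonyl reductases Cbr3 and Cbr1 by 2.61 (0.00779) and 1.28 (0.000171). Without knockouts 3, 6 and 7 the counts were 7 higher and 2 lower in the first list (median 0.48) and 6 higher in the second. Cbr3 was then at 1.54, and 9.19% of all genes were called higher.

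Other antioxidant lists did not share this direction. Their counts stand beside 11.5% higher and 11.0% lower over all genes tested. Of 9 thioredoxin and peroxiredoxin genes 0 rose and 5 fell (median -0.46), with Msrb1 at -0.87 (limma adjusted p = 0.00715) and the peroxiredoxins Prdx1 at -0.51 (0.00432) and Prdx6 at -0.51 (0.00422). Of 10 antioxidant enzymes outside the classical NRF2 set 0 rose and 5 fell (median -0.32), with Gpx1 at -1.04 (0.00113), catalase (Cat) at -0.83 (0.011) and Sod1 at -0.82 (0.00165). The others that fell, named after their values were seen, were Glrx and Selenow in the first list and Sod2 and Prdx5 in the second. Under equal sums these lists had 1 and 3 genes lower, beside 866 of 23554 over all genes, and Prdx1 and Prdx6 did not pass. With quantile normalization Prdx1, Prdx6, Gpx1, Cat and Sod1 did not pass, and without knockouts 3, 6 and 7 Msrb1 was at -0.51 and Cat at -0.50. In NADPH supply 1 of 6 rose, Pgd of the pentose phosphate pathway by 1.5 (0.00171), and 3 fell, Me1 at -0.80 (0.00449), Idh1 at -0.79 (0.00253) and, named after its value was seen, Taldo1. Of 8 iron and heme genes 0 rose, and Fech, the last enzyme of heme synthesis, fell (-0.46, adjusted p = 0.00644), a share near the 11.0% over all genes. Under equal sums 33.3% of all genes were called higher. There the NADPH counts were 2 higher and 1 lower, and the iron and heme counts 2 and 0. Fech was at -0.12 (0.283) and Me1 at -0.46 (0.0708) under that scaling.

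Some of the 10 genes answer to other regulators too, and those regulators' genes were read beside them. Over all genes tested, 11.5% were called higher and 11.0% lower. Under equal sums 33.3% were called higher, and 9.19% without knockouts 3, 6 and 7. Nqo1 is also a target of the aryl hydrocarbon receptor, and of 7 genes of that list 3 rose and 1 fell: Cyp1a1 was higher by 1.45 (limma adjusted p = 0.0215) and Ahrr by 1.01 (0.0465), and Cyp1a2 was at -0.84 (0.0125). Without knockouts 3, 6 and 7 Cyp1a1 was at 0.78 and Cyp1a2 did not pass (0.0565), nor did Cyp1a2 under equal sums (0.0627), where 4 of the list were higher and 0 lower; Ahrr lost its call in 19 alternative settings and kept it in 10. Slc7a11 is also a target of ATF4, and of 10 ATF4 genes 3 rose and 0 fell, namely Psat1 at 1.75 (0.0221), Trib3 at 1.68 (0.0496) and Phgdh at 1.67 (0.00423). Trib3 lost its call in 19 alternative settings and Psat1 in 7; without knockouts 3, 6 and 7 all 3 passed, with Trib3 at 0.65 and Psat1 at 1.11, and the median of the list went from 0.50 to -0.12. Glutathione S-transferases and efflux pumps also answer to CAR and PXR, and of 7 genes of that list 2 rose and 3 fell. Cyp2b10 rose by 3.71 (0.000644) and Cyp2c55 by 1.62 (0.0354), and Nr1i3, which encodes CAR, was at -1.42 (0.00157). Cyp2c55 lost its call in 16 alternative settings, among them the fit without knockouts 3, 6 and 7 (1.15, 0.164), and under equal sums the list had 3 higher and 1 lower. The others called in the AhR and the CAR and PXR lists, named after their values were seen, were Ahr (higher) and Nr1i2 and Por (lower). Which regulator acted on any of the 10 genes was not tested.

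**Figure D4:**
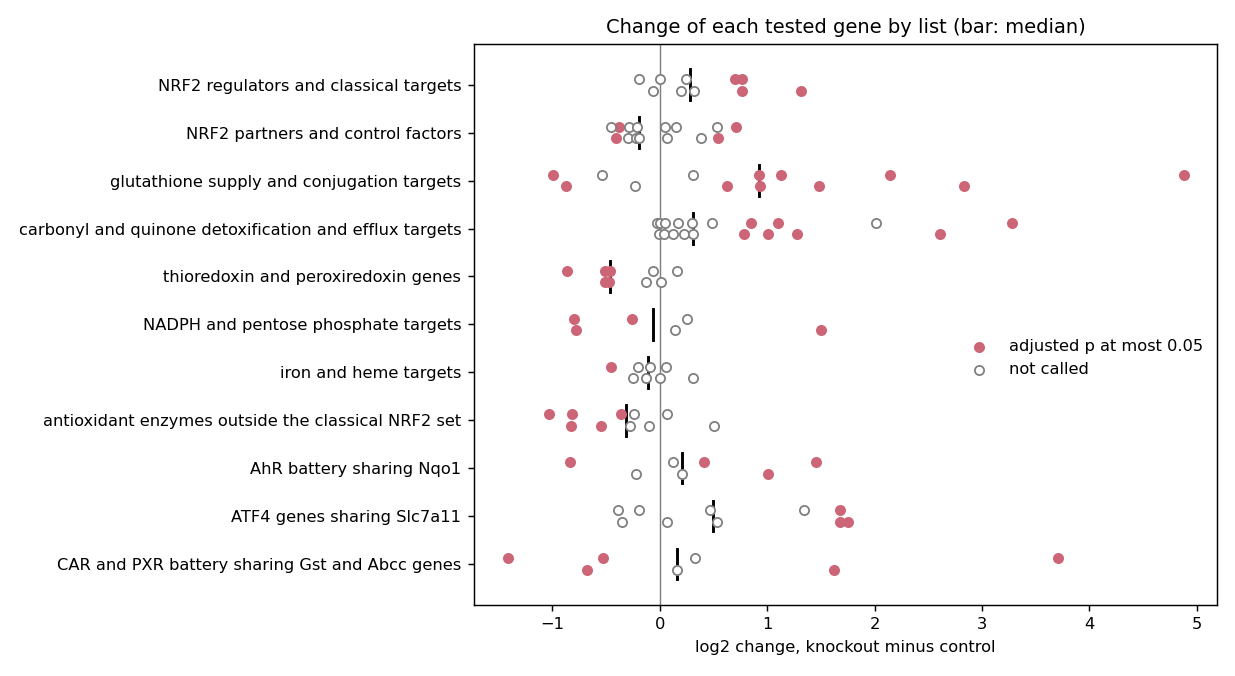
Log2 change, knockout minus control, of each tested gene in the 10 classical genes and the 10 further lists, filled where limma's adjusted p is at most 0.05, with a bar at each list's median. Glutathione genes lie mostly to the right (median 0.92), and thioredoxin and peroxiredoxin genes (median -0.46) to the left.

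Genes that varied most like Nqo1 and Nfe2l2 between libraries of 1 genotype were ranked among 10553 coding genes by Pearson r of log2 values after each group's mean was subtracted, over 14 libraries that share their preparation and depth differences. For Nqo1 these were Mgst3, a microsomal glutathione transferase (r = 0.93), Pla2g16 (0.90), Slc16a7 (0.89), Acot13 (0.89) and Ppt1 (0.89), and over the 11 libraries without knockouts 3, 6 and 7 they were between 0.85 and 0.92. For Nfe2l2 they were Hells (0.97), Ets2 (0.96), Jcad (0.96), Smarcb1 (0.96) and Ripor1 (0.95), and between 0.82 and 0.94 without the 3 libraries. The 11 libraries are part of the 14 on which the genes were picked, so their r values are not a separate check. Only the genotype means were subtracted, so differences by Xist class remain in these r values. Mean Nqo1 was higher in the Xist-high libraries of both groups.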

How the data were processed

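RNA was total RNA from flash-frozen liver extracted with Trizol and made into stranded libraries with a Takara SMARTer Pico kit, per the labels' protocols. The authors used kallisto and sleuth with mm10, per the submitters' processing notes; versions are not given in the sources used here. The deposited signal values are estimated counts per gene divided by 1 size factor per library, and are not raw counts; the authors' deposited q-values come from a Wald test, per the file headers; the authors' model works on the natural log of value + 0.5, as read from the deposited columns of means and differences.

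Here lines were reduced from 75859 to 54446 genes, and the 23554 genes that reached 10 in 6 or more libraries were tested with limma 3.58.1 in R 4.3.3 on log2(value + 1), with a trended prior, no covariate and Benjamini-Hochberg adjustment over all genes tested. A fold on this scale understates changes of low genes. Depth is the summed value over the worth of 1 read, the commonest low value. Named are the 10 genes, Mettl3, up to 3 called genes per list with the largest change, and the 5 genes most like Nqo1 and Nfe2l2. The members and lists were chosen with earlier results of these data known. Lists: factors acting on NRF2 (Nfe2l1, Nfe2l3, Bach1, Bach2, Maff, Mafg, Mafk, Cul3, Rbx1, Sqstm1, Dpp3, Btrc, Gsk3b, Trim21, Palb2) and 9 others named in the report. Markers of endothelial (3 of 6 lower: Clec4g, Kdr, Oit3), stellate, erythroid, lymphocyte and neutrophil cells (0 called) were also read. Alternatives covered threshold, filter, pseudocount, scaling, weights, covariates and libraries left out.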

Additional observations from a re-analysis of the deposited data

Results flagged for a closer look

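Within each genotype, the highest and lowest library of each of the 10 genes was set against the others by Dixon's ratio of gap to range, in 20 sets in all, of which chance marks about 1 in 20. Only the 2 libraries given here passed the 95% critical value of that ratio. Gclc in knockout 5 was 1023 normalised counts, far below the other 7 knockouts (ratio 0.586). Hmox1 in control 4 was 688, far above the other 5 controls (ratio 0.628).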

How the results depend on the processing

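Of the 10 genes 4 were called higher; the count was 2 at a threshold of 0.01, 2 with no filter (Nfe2l2 at limma adjusted p = 0.0668, Srxn1 at 0.0535), 2 in the Y-positive and 0 in the Xist-high libraries alone, and 2 to 5 with each library left out in turn (2 without control 6, where Nfe2l2 and Srxn1 did not pass). Over all genes, 2697 higher became 1311 at 0.01, 7833 under equal sums, 1740 with Y-positive libraries alone and 172 with the Xist-high ones; 2583 lower became 1358, 866 and 47 at 0.01, under equal sums and in Xist-high libraries. Of the list genes, 26 higher became 15 at 0.01, 44 under equal sums and 1 in Xist-high libraries, and 22 lower became 8 under equal sums, 8 with quantile normalization and 0 in Xist-high libraries. Equal sums without knockouts 3, 6 and 7, chosen after seeing the data, gave 5429 genes higher and 681 lower, and 4 list genes lower. In that fit 6 of the 10 genes were called higher and 0 lower, where the median log2 change over all genes was 0.30. Nfe2l2 was at 0.61 (limma adjusted p = 0.00615) and Srxn1 at 0.67 (0.00402), so the loss of their calls without these 3 libraries depends on scaling. Apart from the scalings, where the shift of all values is by construction, and the smaller sets of libraries, the cause was not tested.

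Signs changed in 4 genes that did not pass. Gclm was 0.14 under equal sums, 0.0743 with quantile normalization and 0.18 under equal sums without knockouts 3, 6 and 7. Txnrd1 was -0.0122 with Xist class and -0.0084 with depth as covariate, -0.15 in Y-positive libraries, -0.21 without knockouts 3, 6 and 7, and -0.0681 to 0.055 with each library left out. Hmox1 was -0.19 in Y-positive libraries and -0.20 without knockouts 3, 6 and 7. Gsr was 0.27 under equal sums, 0.13 in Xist-high libraries and 0.0875 under equal sums without knockouts 3, 6 and 7.

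Replicate numbers are shared by the groups, but same-numbered libraries deviated together by r = 0.0707 to 0.228, with number 3 under 0.1, and 2 of 6 controls correlated best with the knockout of their number, so the numbers were not taken to pair them. With the replicate block 3 of the 10 genes were called higher (Srxn1 at adjusted p = 0.0821), calls over the table were 2037 higher and 1917 lower (20 and 18 for list genes), and Txnrd1 was -0.0472. Depth limits Slc7a11 most, and the 2 Xist-high controls limit that class.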
